A study of Rattus norvegicus with 12 samples.

Results

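Treated rat joints were compared with sham joints across all genes, using the 4 libraries labelled treatment and the 4 labelled sham of the 12 in the series. The libraries of each group were taken by their labels, and the other 4 libraries, labelled model, serve only for values set beside it. RNA of rat joint tissue was extracted with Trizol and sequenced, and the series title names knee osteoarthritis and Yi-Ping Lin circum-knee acupuncture, that is, needling at points around the knee. For no group do the labels state the procedure behind its name, the strain, the sex, the age, the time of collection or which parts of the joint were taken. Nothing says whether the replicates come from separate animals, so the p-values cover the variation among these libraries alone and part of it may be technical.

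A knee joint holds cartilage, a synovial membrane of fibroblast-like cells and macrophages, vessels, fat, ligament and, in the ends of the bones, marrow. Marrow makes red cells, granulocytes, platelets and B cells and is rich in dividing precursors, whereas synovium and ligament are built by fibroblasts that secrete collagens and proteoglycans. In osteoarthritis cartilage matrix is broken down, and the synovium can thicken, gain vessels and take up macrophages.

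Each of the 8 libraries held between 15950026 and 17218402 gene reads. Values below are the authors' normalised values (reads divided by a library size factor set over these 8 libraries) and are comparable between libraries for 1 gene. Fold changes are differences of group means of log2(value + 1), treatment minus sham, with the SE of the fit and n = 4 per group. They understate changes of genes with low values. A gene was called at a limma adjusted p under 0.05 over the 20352 genes tested, which had a mean value of at least 1. Markers of a joint were present in all 8 libraries, with Col2a1 (cartilage collagen) from 4855 to 185148 and Prg4 (lubricin) from 1881 to 123405. Alpha-globin Hba-a1 took 3.12% to 5.11% of the reads in the sham libraries, more than any other gene, and fibronectin Fn1 held that place in the treatment libraries with 1.38% to 4.79%. The groups lay apart on the first principal component, which held 63.9% of the variance, and treatment 2 stood apart on the second, which held 15.2%.

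Of the genes tested, 7485 (36.8%) were called. Treatment was higher for 3524 of them (17.3% of the genes tested) and lower for 3961 (19.5%). Every count of list members below is to be read beside these shares. Losses were larger than gains: 1908 called genes were at least 4-fold lower and 955 at least 4-fold higher, and 323 were at least 32-fold lower against 13 higher. The median log2 fold change over all genes tested was -0.01. The authors' deposited table of changed genes lists 5704 genes for this comparison, 2886 higher and 2818 lower, and 5263 of them were also called here (92.3% of the authors' genes and 70.3% of the calls).

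**Figure D1:**
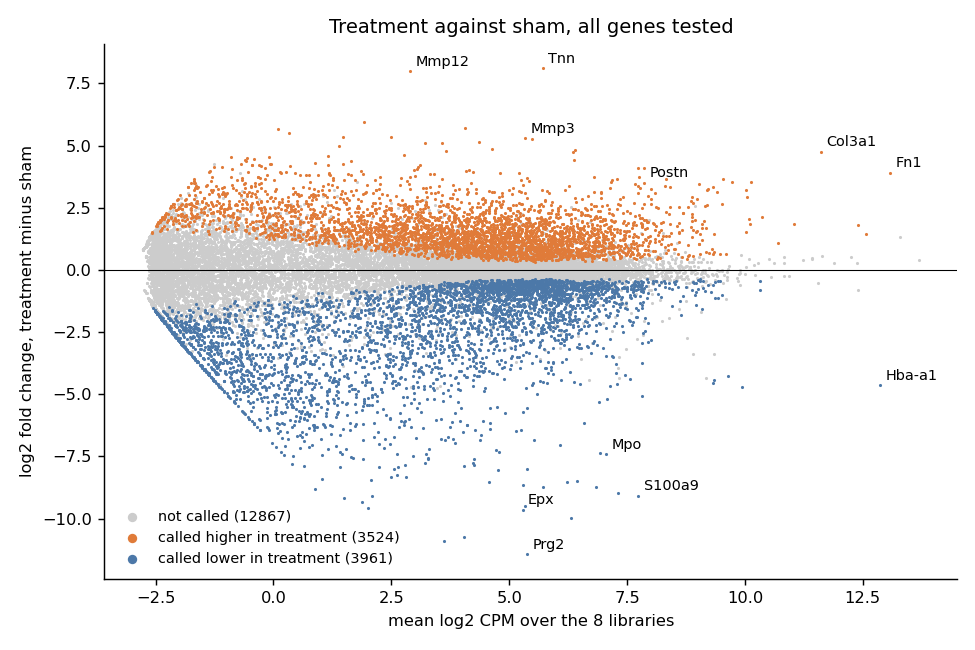
Log2 fold change of treatment against sham (vertical axis) against mean log2 CPM over the 8 libraries (horizontal axis), 1 point per gene tested. Orange points are the 3524 genes called higher, blue points the 3961 called lower. The lower side reaches -11.44 (Prg2) and the upper side 8.11 (Tnn).

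Matrix genes of fibroblasts were higher in treated joints. Of 89 tested members of 6 stromal lists (collagens and their assembly, matrix glycoproteins, small leucine-rich proteoglycans, fibroblast identity, tendon, and matrix-degrading enzymes with their inhibitors), 70 rose and 2 fell, with a median log2 fold change of 2.18. Their summed level was 19861 to 44547 CPM (counts scaled to a common library total) in the sham libraries and 83887 to 191049 in the treatment libraries. The marrow lists, which include genes of cell division, moved the other way in the same libraries. They held 77426 to 95064 CPM in sham and 1864 to 5868 in treatment. The part of that loss in the stromal levels was not tested. In bulk tissue a change in the number of cells of a type and a change in the RNA per cell cannot be told apart.

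The gene with the highest log2 fold change was Tnn (ENSRNOG00000002548, chromosome 13, 72319155 to 72408156 in mRatBN7.2), which encodes tenascin-N, a matrix glycoprotein. Its values were 64.5, 53.6, 70.8 and 25.8 in sham 1 to 4 and 10712, 9706, 32311 and 11896 in treatment 1 to 4. Every treatment library lay far above every sham library, and treatment 3 was the highest (log2 fold change 8.11 ± 0.44, limma adjusted p = 7.41e-06). Rab15, a small GTPase of membrane traffic, also stood apart in every library, with 41.5, 16.0, 34.9 and 15.3 in sham and 782, 790, 1114 and 881 in treatment (5.12 ± 0.34, limma adjusted p = 1.34e-05). Nox4, an NADPH oxidase that makes hydrogen peroxide, had 4.78 to 36.9 in sham and 422 to 936 in treatment (5.36 ± 0.57, limma adjusted p = 0.000138). Among the 10 named genes with the largest gains were also C1qtnf3, a secreted protein of the C1q and TNF family (5.70 ± 0.75), and Msln, the mesothelial surface protein mesothelin (5.36 ± 1.04).

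Genes of collagens and of their assembly rose in 21 of 22 cases (median 2.68). Col3a1 (ENSRNOG00000003357, chromosome 9, 47374593 to 47410547), the collagen of loose and newly laid connective tissue, had 26486, 6424, 16900 and 3388 in sham and 408345, 165442, 381747 and 200616 in treatment. The groups did not overlap, and sham 1 and sham 3 were the higher sham libraries (4.75 ± 0.63, limma adjusted p = 0.000553). Col1a1, the main collagen of bone and tendon, was the member not called: sham held 55587 to 170846 and treatment 105535 to 539612, with treatment 2 inside the sham range (1.33 ± 0.52, limma adjusted p = 0.0747). Type VI collagen, which forms a mesh around cells, rose in all of its 3 listed chains by 3.12 to 3.35. The collagen cross-linking enzymes Lox (3.09 ± 0.54) and Loxl2 (2.92 ± 0.47) rose too, as did P4ha3, which hydroxylates prolines of collagen, from 59.2 to 111 in sham to 378 to 960 in treatment.

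Matrix glycoproteins rose in 16 of 18 cases (median 2.16). Ccn5, a matricellular protein, had 244, 63.9, 140 and 87.9 in sham and 4211, 5717, 7783 and 2275 in treatment (5.26 ± 0.48, limma adjusted p = 7.76e-05). Fn1 had 94313, 20466, 39965 and 23014 in sham and 793452, 618314, 835486 and 222282 in treatment (3.91 ± 0.57, limma adjusted p = 0.000796). Neither gene overlapped between the groups. Periostin (Postn, 3.52 ± 0.55), which is made in healing connective tissue, and Ccn2, a target of TGF-beta signalling (2.95 ± 0.51), also rose, whereas Thbs1 (0.11 ± 0.67) and Fbln1 (0.23 ± 0.69) were not called.

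Small leucine-rich proteoglycans, which bind collagen and set the width of its fibrils, rose in 7 of 8 cases (median 3.02). Lumican (Lum) was nearly constant in sham, at 3017, 3062, 3274 and 3236, and stood at 33408, 19306, 52612 and 21343 in treatment (3.21 ± 0.29, limma adjusted p = 6.24e-05). Asporin (Aspn) had 120 to 796 in sham and 4386 to 8183 in treatment (4.43 ± 0.50). Osteomodulin (Omd), a proteoglycan of bone, was not called (-0.18 ± 0.86).

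Of 14 genes of fibroblast identity, 8 rose and 1 fell. The transcription factor Prrx1 had 920, 513, 646 and 507 in sham and 4032, 2650, 3294 and 3349 in treatment (2.39 ± 0.22, limma adjusted p = 6.24e-05), and the PDGF receptor Pdgfra rose by 2.31 ± 0.26. Dpp4, a peptidase that marks a fibroblast subset in other tissues, went the other way, with 636, 958, 908 and 843 in sham and 115, 287, 171 and 405 in treatment (-1.91 ± 0.36). Markers of the synovial lining were less even. Cd55 had 9546 and 5542 in treatment 1 and 2 but 2102 and 1687 in treatment 3 and 4, near the sham range of 1591 to 1930 (1.13 ± 0.50, limma adjusted p = 0.111). Clic5 ran from 623 in treatment 4 to 11321 in treatment 2 and was not called (1.22 ± 0.85). Tendon genes rose in 3 of 7 cases, among them Scx, the transcription factor of tendon cells, with 85.0 to 101 in sham and 219 to 627 in treatment (1.79 ± 0.32).

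Matrix-degrading enzymes and their inhibitors rose in 15 of 20 cases and fell in 1. Mmp3 (stromelysin, ENSRNOG00000032626, chromosome 8, 4640416 to 4653961), which cleaves proteoglycans and activates collagenases, had 195, 80.8, 126 and 59.2 in sham and 3575, 1751, 13298 and 3519 in treatment (5.30 ± 0.61, limma adjusted p = 0.00031). All treatment libraries exceeded all sham libraries. The inhibitor Timp1 rose as well, from 239 to 491 in sham to 1761 to 4857 in treatment (3.10 ± 0.32), and so did the gelatinase Mmp2 (3.47 ± 0.43). Collagenase Mmp13 was not called: sham held 1787 to 3148, while treatment ran from 206 in treatment 2 to 8414 in treatment 1 (-0.43 ± 1.03, limma adjusted p = 0.782). Of the aggrecanases, Adamts5 had 264 to 840 in sham and 682 to 1250 in treatment (1.12 ± 0.36, limma adjusted p = 0.0356), a call that ended under each of 4 edgeR fits and when any of 5 libraries (sham 2, 3 or 4, treatment 1 or 3) was left out, and Adamts4 was not called (1.30 ± 0.64). Adamts9 fell by 0.99 ± 0.24 on the log2 scale.

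**Figure D2:**
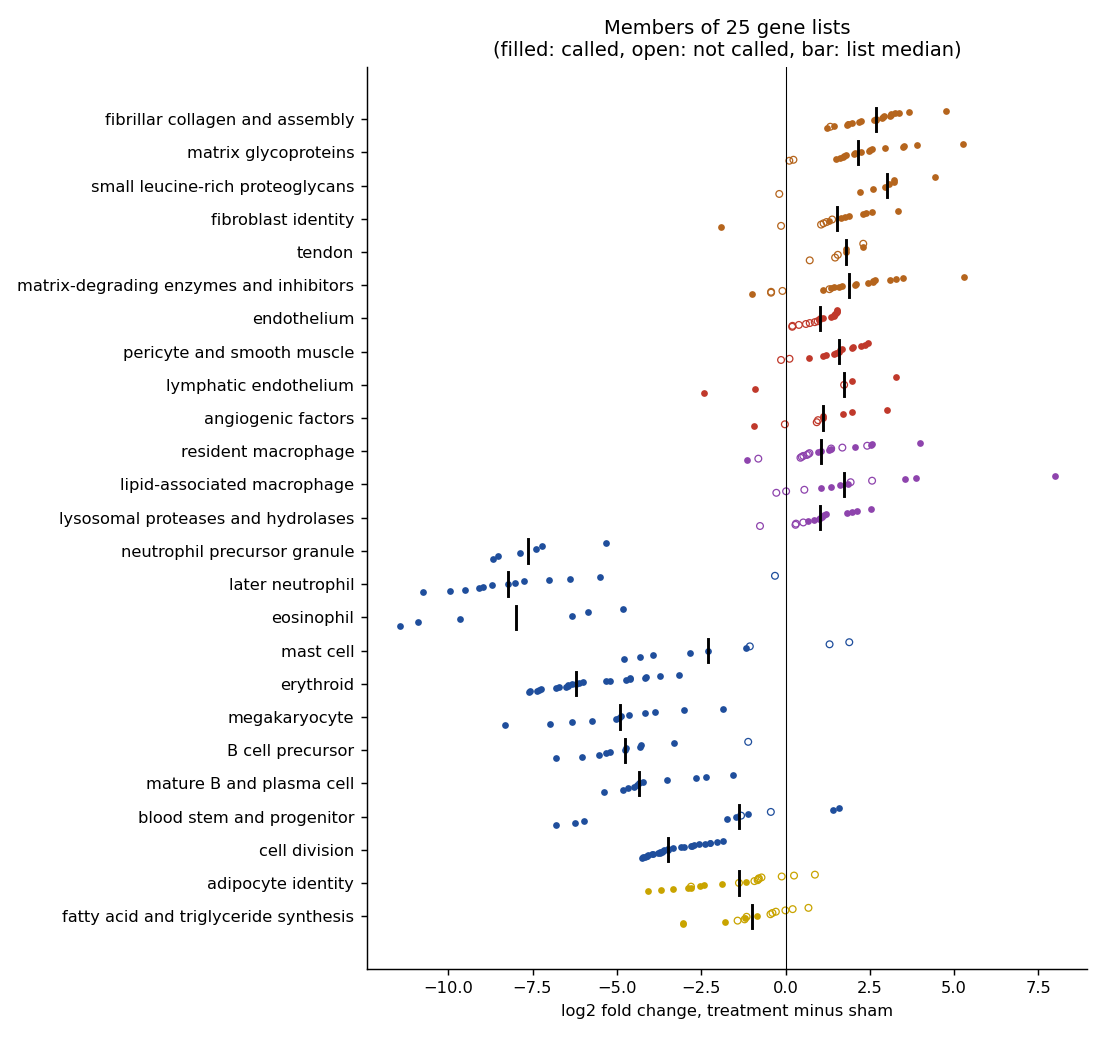
Log2 fold change of treatment against sham (horizontal axis) for the tested members of 25 lists, 1 point per gene, filled where called and open where not. Black bars are list medians, from 3.02 for the small leucine-rich proteoglycans to -8.23 for the later neutrophil list.

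Cartilage genes did not move as a group: of 20, 5 rose and 1 fell, with a median of 0.21, beside 17.3% and 19.5% of all genes tested. Col2a1 (ENSRNOG00000058560, chromosome 7, 129098786 to 129127546) had 20249, 21277, 8580 and 20309 in sham and 185148, 4855, 12013 and 9207 in treatment. Treatment 1 lay above every sham library, treatment 2 lay below all of them and the remaining treatment libraries lay between sham 3 and the rest (0.10 ± 1.05, limma adjusted p = 0.95). The same library, treatment 1, was the highest of the 8 for Hapln1, Col9a1, Col9a3 and Col10a1, none of them called. Comp, a matrix protein of cartilage and tendon, did rise, with 8398, 1997, 6411 and 2688 in sham and 109175, 21243, 71289 and 30840 in treatment (3.53 ± 0.62, limma adjusted p = 0.00248).

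Prg4 (ENSRNOG00000002385, chromosome 13, 62487257 to 62504119), the lubricant of the joint surface, had 13716, 1881, 2400 and 2342 in sham and 67100, 123405, 91698 and 4588 in treatment. Treatment 4 fell between sham 1 and the other sham libraries, so the groups overlapped (3.64 ± 1.13, limma adjusted p = 0.0371). Acan, the large proteoglycan of cartilage, had 766 to 1509 in sham and 17334, 1206, 7298 and 4631 in treatment (2.20 ± 0.71, limma adjusted p = 0.0416). The Acan call ended when any library but treatment 2 was left out, and the Prg4 call when any but sham 1 or treatment 4 was left out. Sox9, the master regulator of cartilage, had 62.7 to 74.2 in sham and 75.3 to 479 in treatment (1.57 ± 0.49), and its partners moved in opposite directions. Sox6 fell by 1.65 ± 0.44 on the log2 scale, and Sox5 rose from 24.4 to 142 in sham to 65.6 to 650 in treatment, with overlap (2.58 ± 0.77, limma adjusted p = 0.0286), a call that ended when any of 6 single libraries was left out.

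Vessel genes were higher in treated joints, by less than the matrix genes. Of 48 tested members of 4 vascular lists, 32 rose and 3 fell, with a median of 1.28. Endothelial genes rose in 12 of 19 cases and fell in none. Of the 19, 7 lay entirely above sham, beside 16.9% of all genes tested. The list summed to 756 to 1861 CPM in sham and 1748 to 2249 in treatment, so the groups overlapped. Pecam1 (ENSRNOG00000066008, chromosome 10, 91590521 to 91652116), which joins endothelial cells to each other, had 2742, 963, 1243 and 1642 in sham and 5111, 5424, 3876 and 3404 in treatment (1.52 ± 0.31, limma adjusted p = 0.00437). The VEGF receptor Flt1 had 455 to 1028 in sham and 1646 to 2219 in treatment (1.54 ± 0.25). Both sets of values stood apart, with sham 1 the highest sham library in each. Another VEGF receptor, Kdr (0.40 ± 0.27), and von Willebrand factor, Vwf (0.20 ± 0.19), were not called.

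Genes of pericytes and smooth muscle rose in 13 of 15 cases (median 1.58). Rgs5, a G-protein regulator of pericytes, had 1639, 825, 1074 and 1026 in sham and 9675, 7127, 4895 and 3808 in treatment (2.44 ± 0.31, limma adjusted p = 0.000369). Myh11, the myosin of smooth muscle, had 485 to 2105 in sham and 2577 to 7836 in treatment (1.96 ± 0.49). No treatment library fell within the sham range of either gene. Among factors that guide vessel growth, 5 of 9 rose and 1 fell: Vegfd rose from 7.64 to 47.0 in sham to 86.6 to 239 in treatment (3.02 ± 0.54), Angpt1 fell by 0.93 ± 0.31 on the log2 scale, and Vegfa (0.96 ± 0.38, limma adjusted p = 0.0791) was not called.

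The lymphatic list split. Pdpn, which lymphatic vessels share with synovial fibroblasts, had 388, 139, 184 and 96.5 in sham and 2313, 1815, 2030 and 1051 in treatment (3.29 ± 0.42, limma adjusted p = 0.0004). The hyaluronan receptor Lyve1, whose entry carries the biotype pseudogene, rose from 114 to 545 in sham to 469 to 1396 in treatment, with overlap (1.98 ± 0.49). Flt4, the VEGF-C receptor, fell by 0.91 ± 0.24 on the log2 scale, and Mmrn1, which lymphatic endothelium shares with platelets and their precursors, had 737 to 1806 in sham and 94.1 to 588 in treatment (-2.42 ± 0.56). Skeletal muscle RNA differed widely among these libraries, as given below, and without sham 2, sham 4 and treatment 2, where it was highest, 10 vascular members were called higher, and the calls of Pecam1, Lyve1 and Mmrn1 ended. With edgeR fitted on all 12 libraries, 20 were called higher.

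Members of the macrophage lists (resident, lipid-associated and lysosomal) rose in 26 of 46 cases and 1 fell, with a median of 1.11. In the resident list 8 of 19 rose, 1 fell and 10 were not called. In the other lists 7 of 12 lipid-associated and 11 of 15 lysosomal genes rose. Treatment 3 and 4 held most of this signal: the lists summed to 6263 to 9682 CPM in sham, to 14088 and 10274 in treatment 1 and 2, and to 27957 and 35337 in treatment 3 and 4. The resident list alone summed to 1120 to 1858 CPM in sham. Treatment 1 and 2 lay inside that range, at 1708 and 1568, and treatment 3 and 4 above it, at 3557 and 3329. Mmp12 (macrophage elastase, ENSRNOG00000030187, chromosome 8, 4581785 to 4599611) had 6.45, 2.82, 11.6 and 6.69 in sham and 501, 129, 8103 and 21208 in treatment. The 4 treatment values span more than the gap to sham, yet none came near it (7.98 ± 1.53, limma adjusted p = 0.00472, a call lost with limma-voom and sample weights). Trem2, a lipid receptor of macrophages, had 277, 94.9, 152 and 48.7 in sham and 906, 989, 2757 and 3874 in treatment (3.88 ± 0.63, limma adjusted p = 0.00177). The chemokines Ccl9, which draws myeloid cells (5.95 ± 1.48), and Cxcl13, which draws B cells (5.15 ± 1.13), were among the same 10 and were highest in treatment 3 and 4.

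Not every macrophage gene rose. Cd163 (ENSRNOG00000010253, chromosome 4, 157085093 to 157117878), the haemoglobin scavenger receptor of resident and marrow macrophages, had 2075, 1709, 2119 and 1968 in sham and 1075, 705, 1069 and 744 in treatment. All treatment values lay below all sham values (-1.15 ± 0.18, limma adjusted p = 0.00108). The phagocytic receptors Msr1 (2.54 ± 0.35) and Timd4 (3.99 ± 0.76) and the folate receptor Folr2 (2.57 ± 0.51) rose, while the growth factor receptor Csf1r, at 3143 to 5160 in sham and 2473 to 12778 in treatment, was not called (0.63 ± 0.47). Gpnmb, a glycoprotein of lipid-laden macrophages, ran from 4363 in treatment 2 to 114482 in treatment 4, all above the sham maximum of 3970, and missed the threshold (2.57 ± 0.95, limma adjusted p = 0.0673). Among lysosomal proteins 11 of 15 rose, led by cathepsin L, Ctsl, with 1497 to 3311 in sham and 8953 to 13680 in treatment (2.54 ± 0.27).

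**Figure D3:**
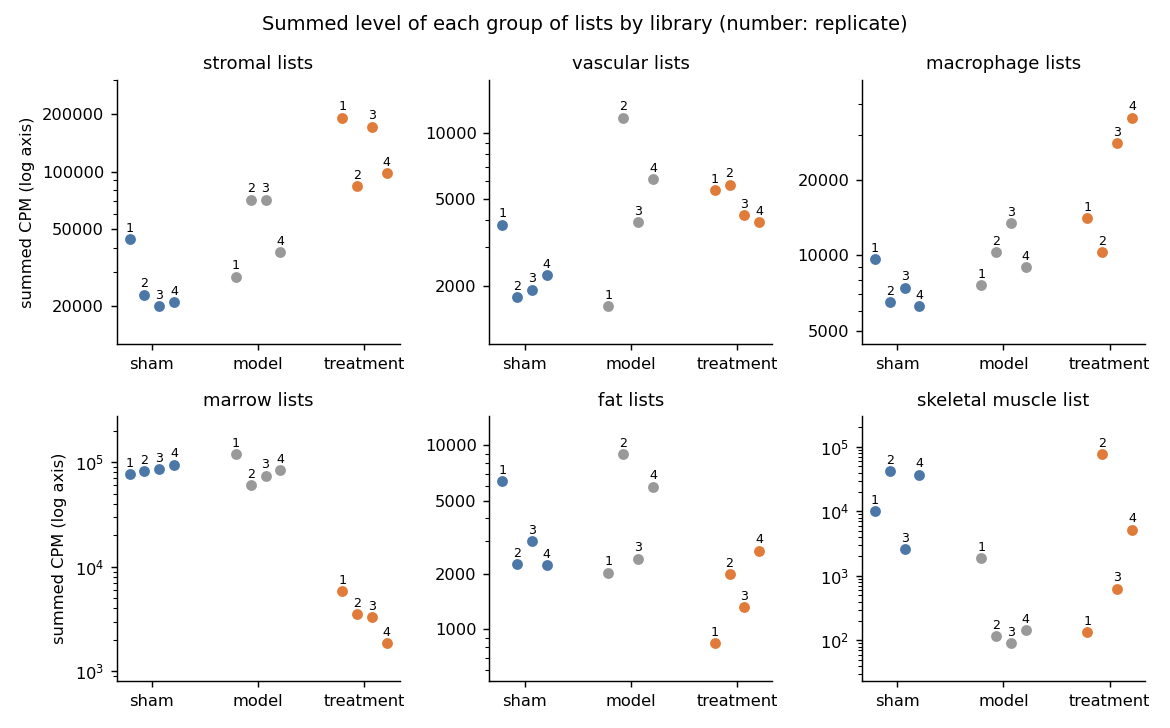
Summed CPM (log axis) of the members of the stromal, vascular, macrophage, marrow and fat lists and of the skeletal muscle list in each of the 12 libraries; numbers are replicates. Marrow lists, cell division included, held 77426 to 95064 in sham, 60191 to 119249 in model and 1864 to 5868 in treatment. In model 2, the lowest model library, the erythroid list alone held 52201 of the 60191. Every marrow list there, other than the erythroid and B cell precursor lists, lay below all sham libraries. Its megakaryocyte list, at 158, lay inside the treatment range of 80.9 to 195. Skeletal muscle ran from 133 to 76869 within the treatment libraries.

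Genes of blood cells and of cell division were lower in treated joints. Of 130 tested members of 10 marrow lists, 121 fell and 2 rose, with a median of -4.54. These figures, and the summed marrow levels, include 29 genes of cell division, which are not particular to blood cells and all fell. The 10 named genes with the largest losses, which had a mean of at least 1 on the log2 CPM scale, are all genes of granulocytes or of their granules. Prg2 (eosinophil major basic protein, ENSRNOG00000008394, chromosome 3, 70062535 to 70066101) had 31575, 29684, 46771 and 25201 in sham and 6.41, 17.7, 133 and 0 in treatment. Sham libraries lay within a narrow range, and treatment libraries held 153 reads of the gene in all against 140442 in sham (-11.44 ± 1.32, limma adjusted p = 0.000511). Ear1, of the eosinophil ribonuclease family, whose members are alike in sequence so that reads may be shared among them, had 937 to 1464 in sham and was at 0 in 3 treatment libraries, with 9 reads in treatment 3.

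Neutrophil genes fell in the same way. S100a9 (ENSRNOG00000011483, chromosome 2, 176190361 to 176193230), a calcium-binding protein that fills the neutrophil cytoplasm, had 71883, 74549, 111860 and 72982 in sham and 208, 1178, 79.1 and 24.7 in treatment (-9.08 ± 1.04, limma adjusted p = 0.000434). Treatment 2 kept the most of it and treatment 4 the least. The 6 genes of neutrophil precursors all fell, with a median log2 fold change of -7.63, among them myeloperoxidase, Mpo, with 23844 to 35256 in sham and 15.2 to 576 in treatment. Of 13 genes of later neutrophils, 12 fell, and Ltf, at 8.46 or less in every library, was not called. The chemokine receptor Cxcr2 changed most evenly, from 3309, 2947, 4855 and 3407 to 22.4, 48.7, 70.9 and 39 (-6.38 ± 0.32, limma adjusted p = 4.79e-06).

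All 23 erythroid genes fell, with a median log2 fold change of -6.21. Hba-a1 (ENSRNOG00000029886, chromosome 10, 15307815 to 15338392), counted here with any reads its near-identical copies share, had 573896, 599070, 482425 and 833365 in sham and 73496, 34977, 29227 and 4966 in treatment. Treatment 1 kept the most and treatment 4 the least, and no library crossed between the groups (-4.62 ± 0.71, limma adjusted p = 0.00119). Klf1, the transcription factor that drives red cell maturation, fell further, from 2123, 2733, 2333 and 2379 to 37.4, 50.9, 49.7 and 9.51 (-6.21 ± 0.47, limma adjusted p = 2.6e-05). The precursor genes Gata1 (-6.34 ± 0.86) and Epor, the erythropoietin receptor (-5.20 ± 0.41), fell as well.

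Trim10, a protein of maturing red cells, had 663, 1097, 904 and 1106 in sham and 10.7, 14.4, 26.4 and 7.60 in treatment, with the smallest p among erythroid genes whose promoter holds the GATA letters AGATAA on either strand (-6.01 ± 0.36, limma adjusted p = 8.03e-06). Its 250 bases before the start site, shown because GATA factors are the textbook regulators of this list, lie on the minus strand at chr20:1703470-1703719 of the later build GRCr8 (RefSeq), and the capitals mark the match, which begins 135 bases before the start.
Trim10: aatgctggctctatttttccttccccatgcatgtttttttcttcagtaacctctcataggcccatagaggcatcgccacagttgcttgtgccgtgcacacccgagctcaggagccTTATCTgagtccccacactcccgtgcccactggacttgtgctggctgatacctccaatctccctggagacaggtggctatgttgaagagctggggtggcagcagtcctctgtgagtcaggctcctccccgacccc
These letters were found in 6 of the 17 erythroid genes with a RefSeq promoter (35.3%, Wilson 95% interval 17.3 to 58.7, counting error only) and in 10.05% of all 27457 promoters. A match of letters is not evidence of a factor bound there.

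Platelet and B cell genes were lower too. All 12 tested megakaryocyte genes fell, among them Gp1ba, part of the platelet receptor for von Willebrand factor, with 503, 594, 754 and 1094 in sham and 20.3, 24.3, 20.3 and 23.8 in treatment (-4.93 ± 0.26, limma adjusted p = 6.49e-06). Pf4, the platelet chemokine, fell least in that list, to 620 to 2248 from 2773 to 4408 (-1.84 ± 0.39). B cell precursor genes fell in 10 of 11 cases and genes of mature B and plasma cells in 11 of 11. Cd79a, part of the B cell receptor, had 1347 to 2608 in sham and 16.6 to 59.9 in treatment (-5.54 ± 0.40), and Jchain, which joins secreted antibodies, had 11467 to 17394 and 270 to 1486 (-4.39 ± 0.50). Sham 4 was the highest library for most of these B cell genes.

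Every one of the 29 genes of cell division fell, with a median log2 fold change of -3.50. Mki67, a protein of cycling cells, had 7528, 16009, 14566 and 13571 in sham and 518, 466, 875 and 942 in treatment (-4.22 ± 0.31, limma adjusted p = 1.95e-05). Birc5, which acts in chromosome segregation, had 621 to 860 and 50.2 to 75.0 (-3.61 ± 0.20, limma adjusted p = 6.97e-06). No library crossed between groups for any of the 29 genes, where 19.8% of all genes tested lay entirely below sham. Among 10 genes of stem and progenitor cells, 6 fell, Myb the furthest (-6.79 ± 0.67), whereas Hoxa9 (1.41 ± 0.27) and Mecom (1.58 ± 0.35) rose. Mast cell genes fell in 6 of 9 cases, and the tryptases Tpsab1 (1.89 ± 1.09) and Tpsb2 (1.31 ± 0.89) did not pass.

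The smallest p of the named genes belonged to Ccnd3 (ENSRNOG00000050258, chromosome 9, 13394169 to 13489371), the D-type cyclin that blood precursors rely on. It had 5949, 5690, 6533 and 6162 in sham and 856, 826, 991 and 853 in treatment (-2.79 ± 0.12, limma adjusted p = 3.88e-06). The spread within each group was small beside the gap. Of 8 genes of the marrow niche, 1 rose, 2 fell and 5 were not called (median -0.09), beside 17.3% and 19.5% of all genes tested. Cxcl12, the chemokine that holds stem cells in marrow, had 13627 to 17501 in sham and 4930 to 5491 in treatment (-1.55 ± 0.14). Lepr, the leptin receptor that marks niche stroma, had 771 to 1006 and 106 to 226 (-2.49 ± 0.25). Il7, a growth factor of lymphocyte precursors, rose by 1.54 ± 0.24.

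**Figure D4:**
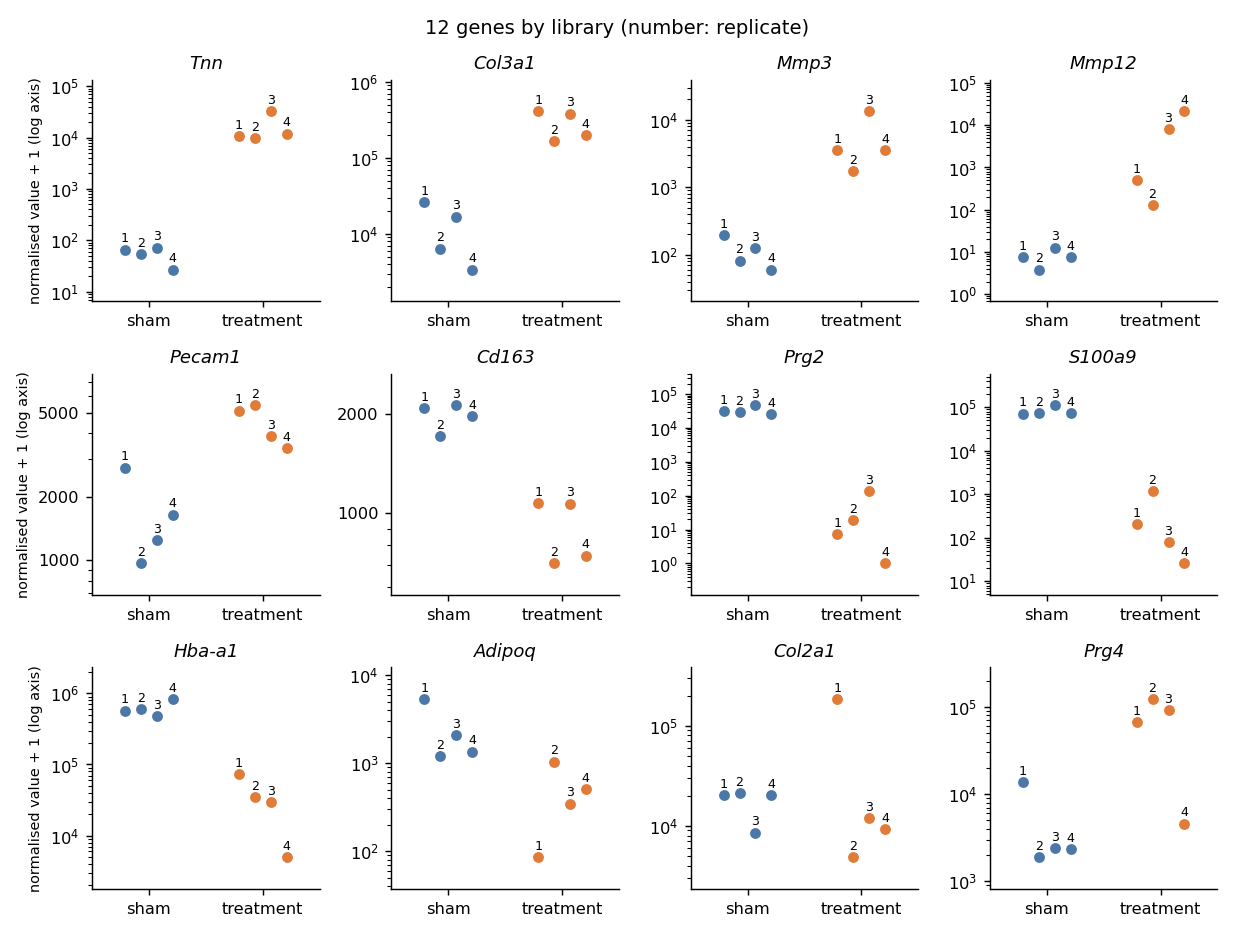
Normalised value + 1 (log axis) of 12 genes in each sham and treatment library; numbers are replicates. Tnn, Col3a1, Mmp3 and Mmp12 lie higher in every treatment library, Cd163, Prg2, S100a9 and Hba-a1 lower in every one, and Col2a1 overlaps, with treatment 1 at 185148.

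Part of the fat genes were lower, less evenly than marrow genes. Of 33 tested members of 2 fat lists, 14 fell, 19 were not called and none rose, with a median of -1.18. Their summed level was 6407, 2249, 3010 and 2223 CPM in sham 1 to 4. It was 840, 1999, 1314 and 2669 CPM in treatment 1 to 4, so the groups overlapped. Adipoq (adiponectin, ENSRNOG00000001821, chromosome 11, 77721912 to 77735564), a hormone of fat cells, had 5387, 1212, 2087 and 1356 in sham and 84.4, 1047, 347 and 509 in treatment. Treatment 2 came close to sham 2 without crossing it, and sham 1 was the highest (-2.55 ± 0.78, limma adjusted p = 0.0339). Retn, the hormone resistin, had 415 to 843 in sham and 7.48 to 105 in treatment (-4.06 ± 0.68), and Agpat2, an enzyme of triglyceride synthesis, had 578 to 887 and 187 to 240 (-1.79 ± 0.17, limma adjusted p = 8.76e-05). The fatty acid carrier Fabp4, at 2300 to 7221 in sham and 1260 to 10632 in treatment, was not called (-0.11 ± 0.61), nor was lipoprotein lipase, Lpl (0.87 ± 0.56).

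The count of fat calls turned on single libraries. Without sham 1 or treatment 3 it was 6, without sham 3 it was 5 and without treatment 1 it was 9. It was 6 with the replicate number as a block, 8 with edgeR and no filter, and 20 without sham 2, sham 4 and treatment 2.

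Bone, muscle and nerve genes showed how far the libraries of a group differed. Of 13 osteoblast and osteocyte genes 5 fell (median -2.53), but treatment 1 summed to 2442 CPM and the other treatment libraries to 90.4 to 288, beside 847 to 1843 in sham. Sost, the bone formation inhibitor of osteocytes, had 1523, 857, 383 and 1282 in sham and 398, 3.32, 37.5 and 13.3 in treatment (-4.84 ± 1.27, limma adjusted p = 0.0188), with treatment 1 inside the sham range, and the call ended under 3 of 4 edgeR fits. Bone sialoprotein, Ibsp, reached 24249 in treatment 1 against 298 to 1701 in the rest of that group and was not called (-1.29 ± 1.27). None of 11 osteoclast genes was called by limma, at a median of 0.18. Oscar, a receptor of osteoclasts, missed the threshold (-2.75 ± 0.98, limma adjusted p = 0.0582) and passed it with DESeq2.

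None of 24 skeletal muscle genes was called by limma. Their sum was 10093, 42448, 2592 and 37121 CPM in sham and 133, 76869, 635 and 5224 in treatment, so the groups overlapped widely. The fast myosin Myh4 had 5076 to 144498 in sham and 8.55 to 111666 in treatment (-4.35 ± 2.79, limma adjusted p = 0.268). The list's median was -2.20 here and above 0 with each edgeR fit and with DESeq2, so its direction was not settled. Of 13 Schwann cell and myelin genes 4 rose and 1 fell, beside 17.3% and 19.5% of all genes tested. Pmp22, a myelin protein that fibroblasts also make, rose by 2.59 ± 0.36, and Mbp, myelin basic protein, fell by 1.26 ± 0.25 on the log2 scale.

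Of 16 inflammatory mediators, 4 rose and 1 fell, beside 17.3% and 19.5% of all genes tested. The monocyte chemokine Ccl2 had 60.8, 16.9, 38.8 and 15.3 in sham and 282, 123, 827 and 726 in treatment (3.71 ± 0.67, limma adjusted p = 0.00253). The cytokine Il6 had 5.53, 1.88, 0 and 0 in sham and 5.34, 23.2, 26.4 and 20.9 in treatment, with treatment 1 inside the sham range (3.06 ± 0.75, limma adjusted p = 0.0111), and nitric oxide synthase Nos2 fell by 1.95 ± 0.49 on the log2 scale. The osteoarthritis cytokines Il1b, with 239 to 304 in sham and 39.5 to 254 in treatment (-1.37 ± 0.58, limma adjusted p = 0.0984), and Tnf, with 13.2 to 34.9 and 13.3 to 125 (1.08 ± 0.71, limma adjusted p = 0.268), were not called.

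Interferon-stimulated genes, which cells switch on against viruses, fell in 8 of 24 cases, rose in 3 and were not called in 13 (median -0.40). Of all genes tested, 19.5% were lower and 17.3% higher. Rsad2 (viperin, ENSRNOG00000007539, chromosome 6, 43047658 to 43059699) had 1683, 2911, 2434 and 4235 in sham and 59.9, 40.9, 116 and 35.2 in treatment (-5.54 ± 0.40, limma adjusted p = 1.94e-05). Ifit1, which binds viral RNA, had 714 to 1415 and 60.9 to 209 (-3.41 ± 0.38). Ifi27 moved the other way, with 1521, 1094, 1197 and 1109 in sham and 2129, 3099, 2782 and 2592 in treatment (1.11 ± 0.17, limma adjusted p = 0.000939). Rsad2 and Ifi27 are shown together because both promoters hold the core of the interferon-stimulated response element (GAAA, a pair of any bases, then GAAA, on either strand) while their levels moved in opposite directions. The 250 bases before each start site (GRCr8, RefSeq) lie at chr6:48788121-48788370 on the minus strand for Rsad2, with 1 match, and at chr6:128355062-128355311 on the plus strand for Ifi27, with 2 matches, in capitals.
Rsad2: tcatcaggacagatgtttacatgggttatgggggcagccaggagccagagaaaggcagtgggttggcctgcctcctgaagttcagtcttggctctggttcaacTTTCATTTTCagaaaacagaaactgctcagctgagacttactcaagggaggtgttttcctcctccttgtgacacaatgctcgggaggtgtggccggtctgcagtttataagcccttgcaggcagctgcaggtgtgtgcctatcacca
Ifi27: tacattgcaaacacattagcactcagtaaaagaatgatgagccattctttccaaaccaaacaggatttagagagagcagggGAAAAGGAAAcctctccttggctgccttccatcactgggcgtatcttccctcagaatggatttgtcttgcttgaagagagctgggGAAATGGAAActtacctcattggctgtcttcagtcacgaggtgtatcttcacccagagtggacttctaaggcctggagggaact
The letters were found in 12 of the 17 listed genes with a RefSeq promoter (70.6%, Wilson 95% interval 46.9 to 86.7) and in 3.29% of all promoters. Genes of this list that were not called, such as Cxcl10 and Bst2, hold them too.

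Clock genes, which keep daily time through a transcription loop, rose in 14 of 18 cases and 1 fell (median 1.55). Bhlhe40 (ENSRNOG00000007152, chromosome 4, 141618476 to 141624774), a repressor in that loop, had 870, 978, 654 and 785 in sham and 3798, 3299, 3822 and 3750 in treatment (2.17 ± 0.15, limma adjusted p = 1.73e-05). Dbp, an output factor of the clock, had 1277 to 1641 and 4568 to 6592 (1.88 ± 0.17), and the repressor Nr1d1 had 833 to 1616 and 3267 to 4266 (1.81 ± 0.22). The activator Bmal1 (0.67 ± 0.29, limma adjusted p = 0.1) and Cry1 (-0.48 ± 0.31) were not called, and Nfil3, which opposes Dbp, fell by 1.87 ± 0.22 on the log2 scale. Libraries of a group lay close together for these genes, and the labels give no hour of collection. Bhlhe40 was the called clock gene with the smallest p whose promoter holds the E-box CACGTG, the letters that clock activators bind, and its 250 bases before the start lie on the plus strand at chr4:143174200-143174449 (GRCr8, RefSeq), with the match in capitals.
Bhlhe40: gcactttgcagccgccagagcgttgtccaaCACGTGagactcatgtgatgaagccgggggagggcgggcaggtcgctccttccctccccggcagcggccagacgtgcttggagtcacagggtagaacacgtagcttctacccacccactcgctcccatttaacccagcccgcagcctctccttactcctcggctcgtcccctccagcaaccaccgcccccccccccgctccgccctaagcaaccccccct
An E-box was found in 4 of 16 clock genes with a RefSeq promoter (25%, Wilson 95% interval 10.2 to 49.5) and in 5.79% of all promoters.

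Immediate early genes, which respond within minutes to stimuli, rose in 12 of 19 cases and 1 fell (median 1.44). Fos had 808, 224, 222 and 333 in sham and 1520, 2165, 3561 and 2538 in treatment (2.78 ± 0.43, limma adjusted p = 0.00121). Atf3 had 29.6 to 241 and 592 to 3166 (3.95 ± 0.71), both apart from sham. Myc, which drives growth and division, fell from 662 to 727 in sham to 325 to 499 in treatment (-0.80 ± 0.15). Of 9 inhibitors of cyclin-dependent kinases and D-type cyclins, 5 rose and 2 fell. The inhibitor Cdkn1a (p21) had 219, 120, 140 and 177 in sham and 661, 913, 870 and 1874 in treatment (2.63 ± 0.32, limma adjusted p = 0.000293), and Cdkn2a had 0 to 4.78 and 59.8 to 221 (5.52 ± 0.63). The inhibitors Cdkn1c (2.24 ± 0.24) and Cdkn2b (2.46 ± 0.45) and the cyclin gene Ccnd1 (1.93 ± 0.27) also rose. The inhibitor Cdkn2c fell by 1.65 ± 0.15 on the log2 scale, as did the cyclin gene Ccnd3 given above, and Cdkn1b (-0.28 ± 0.28) and Ccnd2 (0.44 ± 0.19) were not called.

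Of 21 genes of the TGF-beta and BMP pathways, which include ligands, receptors, antagonists and inhibitors, 10 rose and 1 fell. TGF-beta signalling is known to drive matrix synthesis by fibroblasts. The ligand gene Tgfb3 had 1078, 260, 539 and 294 in sham and 3129, 1894, 2628 and 2457 in treatment (2.43 ± 0.42, limma adjusted p = 0.00201). Every treatment library lay above every sham library, and sham 1 was the highest sham library. A second ligand gene, Tgfb2 (1.76 ± 0.28), and the receptors Tgfbr1 (1.66 ± 0.39) and Tgfbr2 (1.49 ± 0.29) rose, while Tgfb1 (-0.18 ± 0.25) and the feedback inhibitor Smad7 (0.00 ± 0.27) were not called. On the BMP side the receptor Bmpr1a rose by 1.37 ± 0.18, the ligand gene Bmp7 fell by 3.37 ± 0.95 on the log2 scale, and Bmp2 (0.69 ± 0.42), Bmp4 (0.48 ± 0.28), Bmp6 (0.03 ± 0.46) and the antagonist Nog (1.07 ± 0.53) were not called.

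Treated joints were also set beside model joints, in a table that shares the 4 treatment libraries and carries its own size factors. There 731 of 20328 genes tested were called higher in treatment (3.6%) and 2139 lower (10.5%). Of the marrow list genes, cell division included, 112 of 130 were called lower than in model, with a median of -4.03 beside -4.54 against sham. Of the stromal genes, 21 of 89 were called higher than in model and 2 lower (median 1.42 beside 2.18). Vascular genes were higher than in model in 2 of 48 cases (median 0.30 beside 1.28), with none of the 19 endothelial genes called by limma. Members of the macrophage lists, lysosomal included, were called higher in 9 of 46 cases (median 0.79 beside 1.11) and fat genes lower in 8 of 33 (median -1.38 beside -1.18). Whether the distance to sham and the distance to model differ was not tested.

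The same holds for single genes. Tnn had a mean of 53.7 in sham against 16156 in treatment, and 2384 in model against 16084 in treatment in the model table (log2 fold change against model 3.68 ± 0.96, limma adjusted p = 0.0382). Pecam1 was 1.52 ± 0.31 higher than sham but was not called against model (0.40, limma adjusted p = 0.65). There the model libraries differed widely, with 1103, 8608, 3653 and 3495 in model 1 to 4 and a mean of 4215. Prg2 was -9.66 against model (limma adjusted p = 0.0043), S100a9 -8.14 and Hba-a1 -4.85, all called lower in treatment. Clock genes were called higher than in model in 9 of 18 cases and lower in 1, Bhlhe40 by 2.13 (limma adjusted p = 0.0011).

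**Figure D5:**
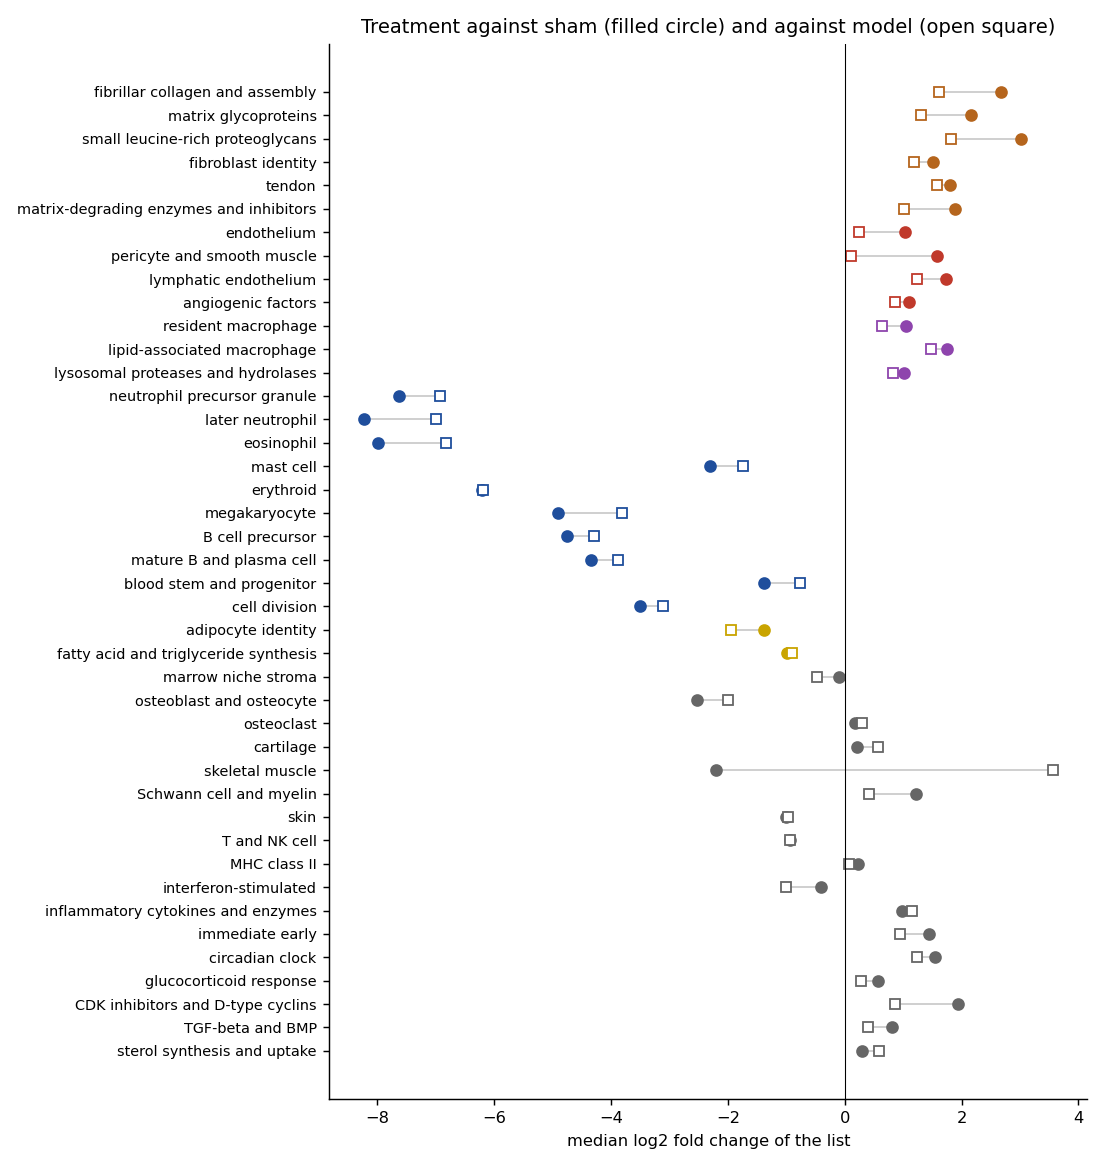
Median log2 fold change (horizontal axis) of 42 lists in treatment against sham (filled circles) and against model (open squares), 2 fits that share the treatment libraries. Marrow lists lie on the left in both, and the skeletal muscle list, with no gene called by limma, lies at -2.20 against sham and 3.56 against model.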

How the data were processed

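Gene expression was measured by RNA-seq in 12 rat joint libraries, of which 4 carry the label sham, 4 model and 4 treatment. Per the submitters' processing notes, fastp and DESeq2 were used with genome build mRatBN7.2. Which aligner, counter and annotation were used, and whether strand was, is not given in the sources used here. The deposited tables hold, per gene, a normalised signal, which is the authors' read count divided by 1 size factor per library within each table, so tests were run only within a table. The authors' deposited list of changed genes gives a log2 fold change and an adjusted p-value; it was used for counts alone.

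Of the values, 100% were whole multiples of 1 step per library (tolerance 0.001), and the reads recovered gave CPM and the input of the count tests. Depth was 15950026 to 17218402 reads in the sham and treatment libraries and 15513066 to 16296086 in the model libraries. The main test was limma 3.58.1 (R 4.3.3; trend and robust moderation) on log2(value + 1) over the 20352 genes whose mean value was 1 or more, with Benjamini-Hochberg adjustment. Alternatives were edgeR 4.0.16 (quasi-likelihood), DESeq2 1.42.0, limma-voom with sample weights, other scalings, pseudocounts and filters, and leaving out libraries. The fits were also run on simulated reads with far fewer changed genes, and smaller changes, than the largest found here. That run cannot show how the fits handle changes as wide as these.

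The comparison, the 42 gene lists (596 of 618 genes matched) and the tests were chosen with earlier results of these data known, and lists are given as counts and medians with no test. The 142 named genes are the 10 highest and 10 lowest called genes with a usual symbol, a mean of at least 1 on the log2 CPM scale and groups that do not overlap, the up to 3 called members of each list with the smallest p (1 member where none was called), and 9 osteoarthritis readouts; other list members in the text were chosen after their values were seen. Results of some genes are not reported here. Promoters came from RefSeq (GRCr8). Intervals cover counting error only.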

Additional observations from a re-analysis of the deposited data

Results flagged for a closer look

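In 278 groups of 4 libraries (named genes in sham and in treatment), gap and range were taken on log2(value + 1). In 15 groups a library's gap to its nearest neighbour, as a share of the range, passed Dixon's 95% critical value for 4 samples. Chance alone gives about 1 in 20. The ratios below are on that log scale, and the values beside them are not logged.

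In the treatment group, treatment 3 stood apart for the matrix gene Tnn (ratio of gap to range 0.831; 32311 against 9706 to 11896) and for the eosinophil gene Ear1 (1; 9.12 against 0). Treatment 1 stood apart for the osteoblast gene Ifitm5 (0.986; 203 against 32.4 to 33.3) and for the cytokine Il6 (0.848; 5.34 against 20.9 to 26.4). Treatment 2 was low for the osteoclast receptor Oscar (0.83; 4.43 against 84.4 to 149) and for the clock repressor Bhlhe40 (0.871; 3299 against 3750 to 3822).

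In the sham group, sham 4 was low for C1qtnf3 (0.856; 6.69 against 53.5 to 74.7) and high for the niche gene Lepr (0.831; 1006 against 771 to 807). Sham 3 was high for S100a9 (0.918; 111860 against 71883 to 74549) and low for Tgfb2 (0.843; 260 against 343 to 361) and Col2a1 (0.945; 8580 against 20249 to 21277). Sham 1 was high for cathepsin L, Ctsl (0.858; 3311 against 1497 to 1675), for the T cell adaptor Lat (0.863; 457 against 303 to 320) and for lubricin, Prg4 (0.877; 13716 against 1881 to 2400). Sham 2 was low for the interferon-stimulated gene Oasl (0.926; 180 against 253 to 260). No cause of these values was tested.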

How the results depend on the processing

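Of the 142 named genes 135 were called, and 110 of them were called under each of the 23 alternatives. Among counts of calls, 151 values stayed within 1.5 times the main count and 10 did not. Without sham 2, sham 4 and treatment 2, the libraries with the most muscle RNA, 1994 genes were higher and 2609 lower, with 10 vascular members higher; fewer samples entered that fit. On the recovered reads edgeR with TMM scaling called 3427 genes higher and 3665 lower, and DESeq2 4103 and 4154. EdgeR on all 12 libraries called 20 vascular members. Fat members called lower numbered 8 with edgeR and no filter, 6 with the replicate block, and 5 to 17 when 1 library was left out. The median of the skeletal muscle list, -2.20 with limma, was 0.30 with edgeR under TMM scaling, 0.27 with edgeR under RLE scaling, 0.30 with edgeR and no filter, 0.27 with DESeq2 and 0.30 with edgeR on all 12 libraries; the cause was not tested. Total-read scaling moved the median of all genes to -0.15, with 2792 genes higher and 4581 lower.

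Same-numbered sham and treatment libraries had correlations of 0.09, 0.34, 0.25 and -0.04 of their deviations from the group means, and not every library correlated best with its own number, so the numbers were not taken to pair the samples. With the replicate number as a block, 3191 genes were higher and 3580 lower. Genes with few reads, such as Ear1 and Il6, limit the precision of their fold changes.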

Other observations

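T and NK cell genes were lower in 5 of 19 cases and higher in none, beside 19.5% of all genes tested that were lower. Nkg7, a granule protein of killer cells, had 1644, 1662, 2282 and 2133 in sham and 34.2, 9.96, 33.4 and 24.7 in treatment (-6.30 ± 0.36, limma adjusted p = 7.2e-06), and Ncr1, an activating receptor of NK cells, fell by 5.76 ± 0.63 on the log2 scale. The T cell receptor chains Cd3e (-0.60 ± 0.66), Cd3d (-0.30 ± 0.65) and Cd3g (-0.73 ± 0.43) were not called. None of 8 genes of MHC class II presentation was called by limma, although treatment 3 and 4 held the highest values of Cd74, the invariant chain (23994 and 15222 against 5180 to 8939 in sham), and treatment 2 the lowest (2376).

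Sterol genes moved in both directions, with 5 of 12 higher and 2 lower. Insig1, which restrains sterol synthesis, had 660 to 902 in sham and 1797 to 2782 in treatment (1.54 ± 0.17, limma adjusted p = 0.000175). Glucocorticoid response genes were also divided, with 5 of 11 higher and 2 lower. Fkbp5, a co-chaperone of the glucocorticoid receptor, had 1484 to 1925 in sham and 566 to 759 in treatment (-1.32 ± 0.15, limma adjusted p = 0.000169), while Tsc22d3, an anti-inflammatory target of that receptor, had 1199 to 1617 and 2350 to 5123 (1.24 ± 0.23, limma adjusted p = 0.00283).

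Among the called genes were 27 immunoglobulin variable gene segments, all lower in treatment, beside 19.5% of all genes tested that were lower. Segments tested but not called were not counted. The segments are alike in sequence, so reads may be divided among them.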
